A study of Mus musculus with 6 samples.

Results

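The miR-297 family is a small set of near-identical mouse miRNAs, and its members were taken as all rows whose name starts with mmu-miR-297 in a table of mature miRNAs from hippocampal neural stem cells. This gave 6 of the 1522 rows, namely mmu-miR-297a-5p, mmu-miR-297b-5p and mmu-miR-297c-5p with the 3p arm of each. The family was selected on the RPM of miR-297c-5p, which was nearly absent from 1 of the 2 groups of libraries. Differences between the groups are therefore given for the members as descriptions, with no p-value. Where the number of members past the threshold is printed, it restates that selection.

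The cells (NSCs, which divide and give rise to neurons and glia) came from hippocampi of male pups of the C57BL/6J strain on postnatal day 3, and their small RNA was sequenced. In the group titled IUGR, called GDE in the design text, the pregnant dams had been injected intraperitoneally with the synthetic glucocorticoid dexamethasone, 1 mg/kg each day, on the embryonic days E14.5 to E18.5. In the group titled Normal, the control, dams had been given the same volume of saline on the same days. Each group had 3 libraries, from independent litters per the design text, and how many pups went into each library was not given in the sources used here.

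Sfmbt2, the gene that hosts most of the family, encodes a polycomb group protein and is imprinted in the mouse, with expression from the paternal copy in the early embryo and its extraembryonic tissues. A long intron of this gene carries a dense array of miRNA genes, which besides miR-297 holds the families miR-466, miR-467 and miR-669 and which arose by repeated duplication in rodents. The array is known for its expression in mouse embryonic stem cells and in the placenta, and mice that lack it have placental defects. As in other miRNAs, a hairpin precursor is cut to a duplex whose 5p or 3p strand is then loaded into an Argonaute protein, where bases 2 to 8, the seed, select target mRNAs.

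The annotation (GENCODE M21, GRCm38) held 6 miR-297 precursors, and 5 of these lay in Sfmbt2, on chromosome 2 from 10370510 to 10595253 on the plus strand. All 5 were on the same strand as the gene and in 1 intron, intron 10 of the transcript Sfmbt2-201, which runs from 10461473 to 10523944. Mir297a-2 stood alone toward the start of the array, at 10472254 to 10472343. The other four lay close together near its end. Mir297c was at 10509016 to 10509113, Mir297b at 10511667 to 10511775, Mir297a-3 at 10515820 to 10515921 and Mir297a-4 at 10517067 to 10517164. The remaining copy, Mir297-1, which RefSeq also calls Mir297a-1, was outside the host gene. It lay at chromosome 7, 10958437 to 10958512 on the minus strand, overlapped no other annotated gene, and stood between Zscan4b (53.4 kb away) and Zscan4c (47.2 kb away). Rows of miR-297a thus pool 4 precursors on 2 chromosomes, whereas miR-297b and miR-297c have 1 precursor each. The label of the family as one of the Sfmbt2 intron holds for miR-297b and miR-297c, and for miR-297a with the chromosome 7 copy as an exception.

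The RefSeq sequence table (GRCm38.p6) held the hairpin of Mir297-1, the copy outside Sfmbt2, which is shown for its repeats. It held no hairpin of the 5 intron copies, so the repeats are described for this copy alone. Capitals mark the run covered by the motif AUGUAUGU on the RNA strand, overlaps included.
Mir297-1: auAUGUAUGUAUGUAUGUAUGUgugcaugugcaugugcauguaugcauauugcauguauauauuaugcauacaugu
The run spans bases 3 to 22 of the 76 bases, counted from the 5′ end of the hairpin, and the tetramer AUGU occurs 10 times in the whole hairpin. Of the 1005 mouse hairpins in that table, 5, or 0.498%, held AUGUAUGU. Of the 6 miR-297 precursors, 1 matched an entry there.

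Values are RPM, in which reads are divided by library depth, and whole tags (sequenced reads) could be recovered from them. The libraries rested on 11751322 to 12384958 tags. The rows of the table summed to 2927136 to 3343808 tags per library, with rows of identical values each counted. Where a library has 0 tags of a miRNA, up to 3 tags are allowed for, about 0.25 RPM. The label of the cells was checked against marker miRNAs. miR-9-5p and miR-9-3p, typical of neural progenitors, summed to 15328 to 17058 RPM in IUGR and 15719 to 16712 RPM in Normal, and the neuronal miR-124-3p was at 210.4 to 267.2 RPM in IUGR and 182.4 to 283.2 RPM in Normal. The embryonic stem cell and placenta cluster miR-290 to miR-295, which shares such tissues with the Sfmbt2 array, was near 0. Of its 5 listed members 3 had a row, none above 0.339 RPM in any library.

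miR-297c-5p was the member with the large difference between the groups. It stood at 136.2, 172.6 and 200.3 RPM in the 3 IUGR libraries, against 0.083, 0 and 0 RPM in the 3 Normal libraries. All IUGR libraries were high, all Normal libraries were at or next to 0, and the groups did not overlap. How reads were divided between near-identical miR-297 copies is not given in the sources used here, so whether the values at or next to 0 in Normal are a level or a matter of read assignment cannot be told from the table. In tags these are 1632, 2039 and 2429 in IUGR against 1, 0 and 0 in Normal, a ratio of the depth-corrected sums of 6142 which counting error alone places between 1102 and 242646 (95% exact binomial interval). Such intervals cover counting error only. They leave out the variation between litters, and PCR copies of a molecule are not independent. As the family was selected on these values, the interval describes the counts and tests nothing. The mean was 169.7 ± 32.1 RPM in IUGR and 0.0277 ± 0.0479 RPM in Normal (SD, n = 3 each). By mean level miR-297c-5p ranked 140 among the 1147 named miRNAs in IUGR and 1095 in Normal.

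**Figure D1:**
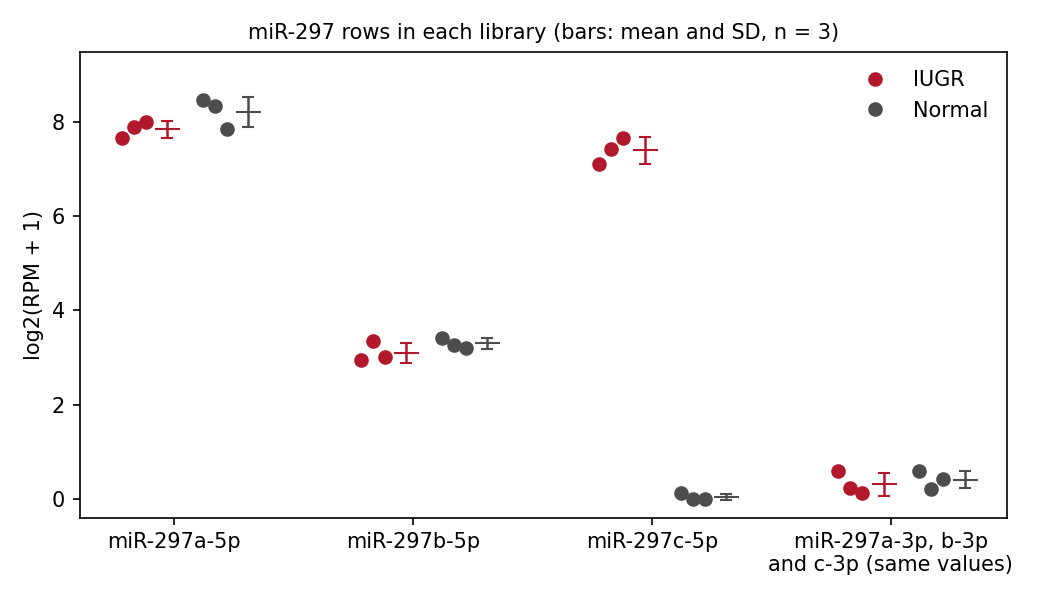
Level of each miR-297 row in the 3 IUGR libraries (red, left of each pair) and the 3 Normal libraries (grey, right), as log2(RPM + 1) on the vertical axis; points are libraries, bars the mean and SD. The IUGR points of miR-297c-5p lie at 136.2 to 200.3 RPM and its Normal points at 0 to 0.083 RPM, while the groups overlap for the other rows.

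Markers of cells other than neural ones also differed between the libraries. The 3 microglia and leukocyte miRNAs listed, miR-223-3p, miR-150-5p and miR-142a-3p, summed to 310.4 to 471.3 RPM in IUGR and 106.7 to 251.2 RPM in Normal. The groups did not overlap for 3 of 3, all higher in IUGR. Over all 649 tested rows, 95 (14.6%) did not overlap, and 30 (4.62%) did not overlap with higher values in IUGR. None of the 3 passed the threshold in limma. miR-150-5p passed it in DESeq2 (log2 fold 1.23, adjusted p = 0.029), which called 5 of 647 rows (0.773%). miR-223-3p passed it without Normal replicate 2 (limma, log2 fold 2.07, adjusted p = 0.0329), where 3 of 649 rows were called. The red cell miRNAs miR-451a and miR-144-3p summed to 59.5 to 75.6 RPM in IUGR and 21.2 to 53.8 RPM in Normal, with no overlap for miR-451a. The endothelial miRNAs miR-126a-3p and miR-126a-5p summed to 265.0 to 464.7 RPM in IUGR and 231.8 to 345.1 RPM in Normal, with no overlap for miR-126a-5p (16.9 to 20.7 RPM in IUGR, 11.2 to 15.2 RPM in Normal). Whether such cells had a part in the level of miR-297c-5p was not tested. In bulk RNA, a change in the number of cells of a type and a change in the RNA per cell cannot be told apart.

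The groups overlapped for miR-297a-5p, the most abundant member. It stood at 200.6, 236.2 and 253.8 RPM in IUGR, against 351.3, 325.0 and 230.8 RPM in Normal. Normal replicates 1 and 2 were the highest, and Normal replicate 3 lay among the IUGR libraries. The mean was 230.2 ± 27.1 RPM in IUGR and 302.4 ± 63.4 RPM in Normal (SD, n = 3 each). In the limma fit over all miRNAs the log2 fold of IUGR over Normal was -0.38 (SE 0.21, on the log2(RPM + 1) scale). Leaving out Normal replicate 3 gave -0.56, and leaving out Normal replicate 1 gave -0.26.

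miR-297b-5p was scarce by comparison, at 6.68, 9.14 and 7.01 RPM in IUGR against 9.72, 8.64 and 8.25 RPM in Normal. IUGR replicate 2 lay between Normal replicates 1 and 2, so here too the groups overlapped. These levels rest on 80 to 108 tags in IUGR and 97 to 117 tags in Normal. The mean was 7.61 ± 1.34 RPM in IUGR and 8.87 ± 0.762 RPM in Normal (SD, n = 3 each), with a log2 fold of -0.21 (SE 0.20).

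The 3 members of the 3p arm carried exactly the same values, so they count as 1 measurement and cannot be assigned to miR-297a, miR-297b or miR-297c. The 3p arm was found in 6, 2 and 1 tags in IUGR and in 6, 2 and 4 tags in Normal, at most 0.501 RPM. The groups overlapped, and the ratio of the sums was 0.755 (95% counting interval 0.281 to 1.95), so a difference was not detectable at this depth. With so few tags, shared by 3 rows, whether the difference in miR-297c-5p had a counterpart in its 3p arm could not be seen. The 3p tags were 0.0179% to 0.146% of all miR-297 tags in IUGR libraries and 0.0484% to 0.142% in Normal libraries, with the 3p rows counted as 1.

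Levels of the members were next compared with each other inside the libraries, which does not rest on the contrast that led to the family. miR-297a-5p was higher than miR-297b-5p in 6 of 6 libraries, by 32.0-fold (mean log2 ratio 5.00 ± 0.23, SD, n = 6; exact two-sided sign-flip permutation p = 0.03125, the smallest value that 6 libraries allow). It was higher than the shared 3p arm in 6 of 6 libraries (mean log2 ratio 10.1 ± 1.11, SD), and so was miR-297b-5p (5.09 ± 1.04, SD), with the same exact permutation p for each. The adjusted p over these 3 pairs was 0.03125 for each by the exact permutation test. Read assignment between such similar sequences was not stated in the sources used here, so the level of a member may include reads of another.

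The proportions among the 5p members lay in a narrow range within each group. miR-297c-5p made up 39.7% (95% Clopper-Pearson interval 38.2 to 41.2), 41.3% (39.9 to 42.7) and 43.4% (42.1 to 44.7) of the 5p tags in the 3 IUGR libraries, with the intervals of replicates 1 and 3 apart. In Normal it made up 0.0230% (0.000583 to 0.128) in replicate 1, and 0 of 4132 and 0 of 2809 tags in replicates 2 and 3, which allow shares of up to 0.0726% and 0.107%. Set against miR-297a-5p in the same library, miR-297c-5p was at 67.9%, 73.1% and 78.9% of its level in IUGR. The ratio of miR-297a-5p to miR-297b-5p, by contrast, had overlapping ranges of 25.8 to 36.2 in IUGR and 28.0 to 37.6 in Normal.

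Summed over the 3 members, the 5p level was 343.5, 418.0 and 461.1 RPM in IUGR, against 361.1, 333.6 and 239.0 RPM in Normal. The groups overlapped, since Normal replicate 1 lay above IUGR replicate 1. The mean was 407.5 ± 59.5 RPM in IUGR and 311.3 ± 64.0 RPM in Normal (SD, n = 3 each), a ratio of 1.31. Without miR-297c-5p the sum averaged 237.8 ± 27.6 RPM in IUGR and 311.2 ± 64.0 RPM in Normal (SD, n = 3 each), a ratio of 0.764. The difference in the family total thus had one sign with miR-297c-5p and the other without it, and the groups overlapped in both cases.

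**Figure D2:**
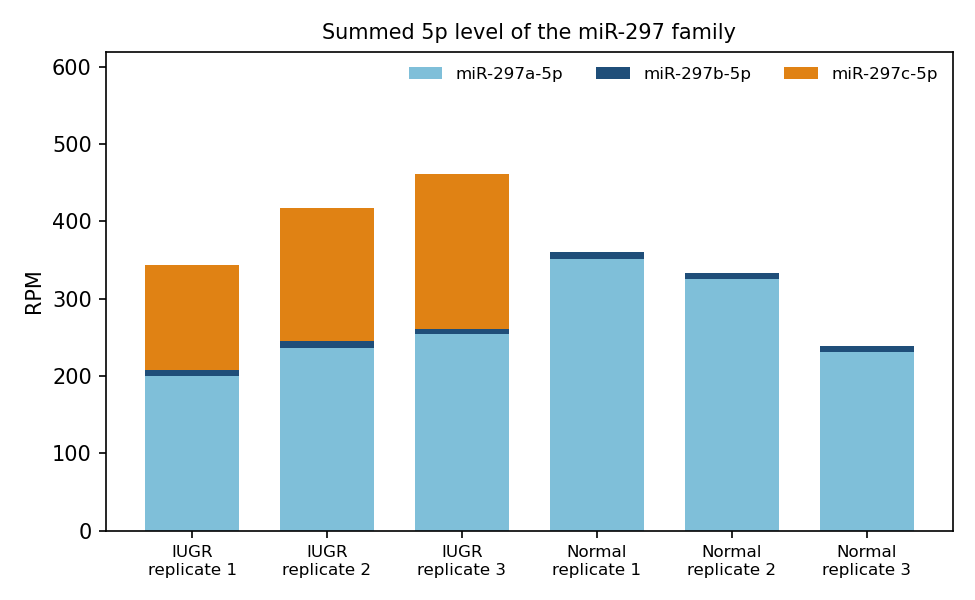
Level in RPM (vertical axis) of miR-297a-5p, miR-297b-5p and miR-297c-5p, stacked for each library. The IUGR bars on the left reach 343.5 to 461.1 RPM and hold a miR-297c-5p segment of 136.2 to 200.3 RPM, while the Normal bars on the right reach 239.0 to 361.1 RPM with no visible segment of it.

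The spread of the members among replicates was set beside that of the other tested miRNAs. The within-group SD on the log2(RPM + 1) scale was 0.26 for miR-297a-5p, 0.17 for miR-297b-5p and 0.20 for miR-297c-5p, against a median of 0.28 over all 649 tested rows. For the 77 tested rows within 1 log2 unit of miR-297a-5p the median was 0.27 (quartiles 0.19 and 0.40), so miR-297a-5p lay in the middle of its peers, with an SD of 0.17 in IUGR and 0.32 in Normal. For the 165 rows around miR-297b-5p the median was 0.30 (quartiles 0.21 and 0.42), and that member lay below the lower quartile. For the 143 rows within 1 log2 unit of the mean of miR-297c-5p over both groups, the median was 0.31 (quartiles 0.22 and 0.45). No library of miR-297c-5p lay near that mean, so these rows are not at its level and the comparison says little. The value for miR-297c-5p combines an SD of 0.28 in its IUGR libraries with one of 0.07 in its Normal libraries near 0.

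The rows whose pattern over the 6 libraries was most like each member were listed by Pearson's r of log2(RPM + 1), as a description without a test, since libraries of a group share their treatment. For miR-297a-5p these were miR-466o-5p and miR-466b-5p (r = 0.97 for each, with identical values), both of the same Sfmbt2 intron, and miR-7669-3p (0.97). The most abundant miRNA of the intron, miR-467a-5p, had r = 0.85 with miR-297a-5p and -0.81 with miR-297c-5p. For miR-297b-5p they were miR-146b-5p (0.96), miR-3091-3p (0.95) and miR-701-3p (0.91). For miR-297c-5p they were miR-369-3p (0.99), miR-30e-3p (0.93) and miR-677-5p (0.93), all higher in the 3 IUGR libraries than in any Normal library. That follows from the split of miR-297c-5p by group, on which the family was selected, and nothing is read from it. The r of -0.81 with miR-467a-5p rests on the same split. Of all 649 tested rows, 30 (4.62%) did not overlap with higher values in IUGR. The differences of the 3 rows were small by comparison, with miR-369-3p at 8.68 to 9.24 RPM in IUGR and 5.57 to 6.14 RPM in Normal. None of these 3 passed the threshold (limma, adjusted p = 0.551 for miR-369-3p, 0.643 for miR-30e-3p and 0.561 for miR-677-5p).

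The nearest neighbours of the members were then examined, taking every miRNA gene within 1000 bases of a miR-297 precursor on the same strand. Mir669c begins 182 bases after the end of Mir297c, at 10509296 to 10509404 on chromosome 2. Its row miR-669c-5p stood at 2.00, 18.45 and 12.86 RPM in IUGR, against 1.91, 0.484 and 0.170 RPM in Normal. IUGR replicates 2 and 3 were high, while IUGR replicate 1 lay next to Normal replicate 1, at 24 and 23 tags. The mean was 11.1 ± 8.36 RPM in IUGR and 0.855 ± 0.928 RPM in Normal (SD, n = 3 each), with a log2 fold of 2.44 (SE 0.68). In limma its adjusted p over all rows was 0.551, so it was not called, and it passed without IUGR replicate 1 (limma, log2 fold 3.26, adjusted p = 0.0133) and in DESeq2 (adjusted p = 0.0016). IUGR replicate 1 was also the lowest of the IUGR libraries in miR-297c-5p, at 136.2 RPM, and in miR-297a-5p and miR-297b-5p. Replicates 2 and 3 ran in opposite order, at 172.6 and 200.3 RPM for miR-297c-5p and 18.45 and 12.86 RPM for miR-669c-5p.

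The neighbouring precursors had 16 rows in the table, 9 of them tested. For the 8 tested rows other than miR-669c-5p the groups overlapped in 7, and log2 folds lay between -0.65 and -0.11. The exception was miR-669h-5p, after Mir297a-4, at 0.742 to 1.27 RPM in IUGR and 1.36 to 2.00 RPM in Normal. Beside Mir297b, miR-466d-3p was at 5.68, 3.56 and 2.14 RPM in IUGR and 4.49, 4.199 and 5.87 RPM in Normal. Around Mir297a-2, miR-466o-5p stood at 17.1, 17.6 and 20.9 RPM in IUGR and at 26.9, 24.4 and 17.7 RPM in Normal, and miR-669d-5p had 20.2 to 22.9 RPM in IUGR and 18.6 to 27.9 RPM in Normal. Upstream of Mir297a-3, miR-466h-3p was at 17.2, 11.3 and 11.9 RPM in IUGR and 27.4, 17.9 and 15.6 RPM in Normal. The groups overlapped for each of these 4 rows, and 0 of the 8 passed the threshold in limma. Over all 649 tested rows, 95 (14.6%) did not overlap and 2 (0.308%) were called, so nothing about the neighbours is read from these counts.

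The other families of the array, miR-466, miR-467 and miR-669, had 62 rows in the table, 43 of them past the filter on low values. These rows were taken by name. Of the 81 annotated precursors of the 4 families, miR-297 included, 71 lay in Sfmbt2. Among the tested rows, miR-466i-3p, miR-466i-5p and miR-467h had no precursor there, at log2 folds of -0.37, 0.68 and 0.11. The tested row miR-466a-3p, at -0.71, matched no annotated precursor by name, so its position was not assigned. None of the 43 passed the threshold in limma at an adjusted p under 0.05, against 2 of 649 rows (0.308%) over the table. edgeR called 0 of them, DESeq2 called 1, miR-669c-5p, against 5 of 647 rows (0.773%), and 4 had an unadjusted p under 0.05 in limma. A negative log2 fold was found for 39 of the 43, with a median of -0.30, against 397 of 649 rows (61.2%) and a median of -0.07 over all tested rows. The rows share reads and 36 of the 43 had distinct values, 32 of these negative. The groups did not overlap for 9 of the 43, 8 of them lower in IUGR, against 95 of 649 (14.6%) and 65 of 649 (10%). The median stayed negative in all 15 alternatives, between -0.41 and -0.20, though the replicate block among them could not change it. The log2 folds of miR-297a-5p and miR-297b-5p, at -0.38 and -0.21, lay in the range of these families, -0.71 to 2.44, and that of miR-297c-5p, at 7.36, lay outside it.

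Among the most abundant rows, miR-467a-5p was at 1111 ± 42.9 RPM in IUGR and 1380 ± 171 RPM in Normal, with a log2 fold of -0.31. miR-467e-5p, miR-467c-5p and miR-467d-5p had log2 folds of -0.21, -0.38 and -0.30. In the miR-669 family, miR-669b-5p was at 243.1 ± 10.9 RPM in IUGR and 264.5 ± 48.9 RPM in Normal, and miR-669l-5p at 123.5 ± 3.55 and 154.8 ± 17.3 RPM in these groups. miR-669a-5p and miR-669p-5p shared 1 set of values, with a log2 fold of -0.32. In the miR-466 family, miR-466c-5p stood at 76.4 ± 4.72 RPM in IUGR and 83.7 ± 21.5 RPM in Normal, and miR-466p-5p, miR-466f and miR-466b-5p had log2 folds of -0.14, -0.23 and -0.28. Means are ± SD with n = 3 each, and none of these rows passed the threshold in limma.

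**Figure D3:**
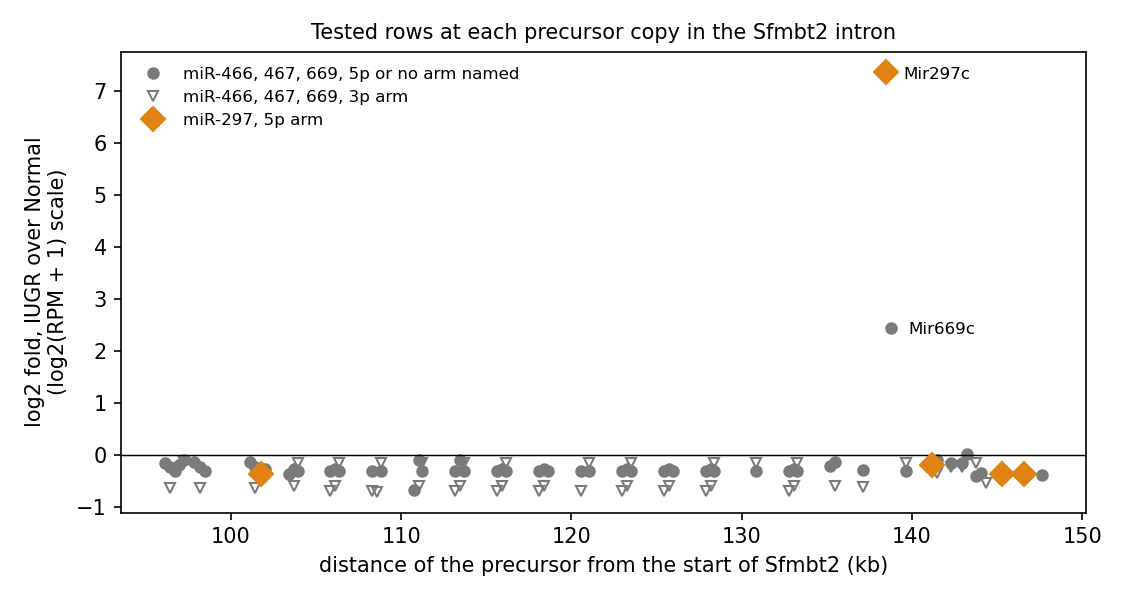
Log2 fold of IUGR over Normal (vertical axis, log2(RPM + 1) scale) of the tested rows matched by name to a precursor in Sfmbt2. Positions are distances in kb from the start of Sfmbt2, and rows with several copies are drawn at each copy. miR-466a-3p, which matched no precursor by name, is not drawn. miR-297c-5p stands at 7.36 and miR-669c-5p, whose precursor is next to it, at 2.44, while the other copies of miR-297 lie at -0.38 and -0.21 among the rest of the array.

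The family was also set against the 4 families as a whole, taken by name and so with the rows of precursors outside Sfmbt2. With rows of identical values counted once, it made up 11.69%, 13.97% and 16.36% of the RPM of the 4 families in IUGR, against 10.0%, 9.28% and 8.40% in Normal. This share includes miR-297c-5p, on which the family was selected, and its lack of overlap restates that. Without miR-297c-5p the share was 7.40%, 8.70% and 9.96% in IUGR and 9.99%, 9.28% and 8.40% in Normal, and the groups overlapped. The level of miR-297a-5p relative to miR-467a-5p overlapped too, at 0.177, 0.208 and 0.239 in IUGR and 0.240, 0.218 and 0.195 in Normal.

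Of the 6 members, 3 passed the filter on low values (1 RPM or more in no fewer than 3 libraries), the 5p rows, and miR-297c-5p passed it through its IUGR libraries alone. Past the adjusted threshold in limma there was 1 member, miR-297c-5p, and with it 0.308% of the tested rows were called, 0.154% as higher in IUGR. Its groups did not overlap, as for 30 of the 649 tested rows (4.62%) with higher values in IUGR. These shares are given beside the member and nothing is read from them, since this contrast led to the family. Its log2 fold was 7.36 (SE 0.21), and that of the tested row next in order, miR-532-5p, was 2.62.

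**Figure D4:**
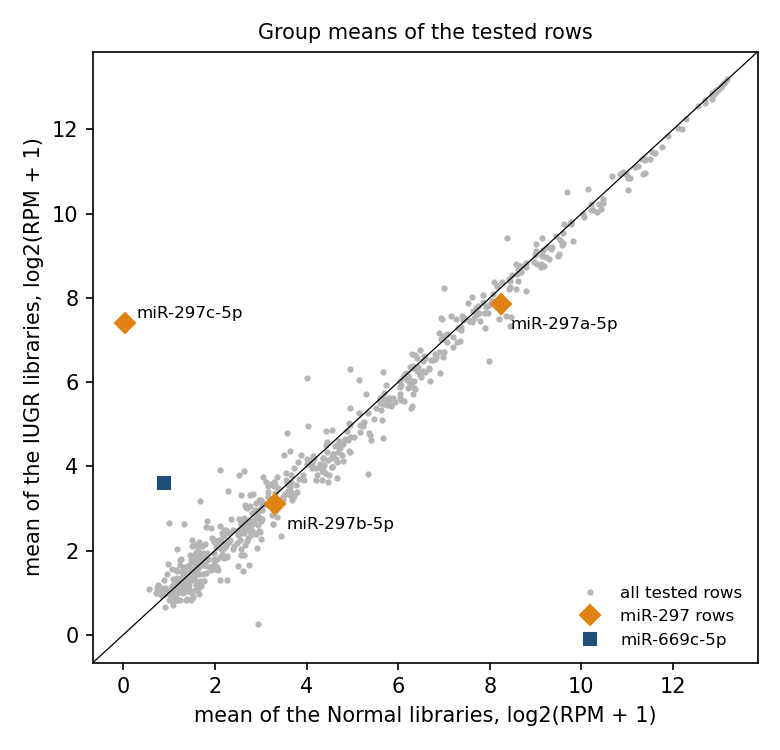
Mean of the IUGR libraries (vertical axis) against the mean of the Normal libraries (horizontal axis), both as log2(RPM + 1), for the 649 tested rows; the line marks equal means. miR-297c-5p, at 169.7 RPM in IUGR and 0.0277 RPM in Normal, lies apart from the line, while miR-297a-5p and miR-297b-5p lie on or near it.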

How the data were processed

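Small RNA was sequenced in 6 libraries, 3 titled IUGR and 3 titled Normal. TRIzol was used for extraction and an MGIEasy Small RNA kit for the libraries, per the labels' protocols. Bowtie2 and mm10 are named, without a role, in the submitters' processing notes. How reads matching several miRNAs were assigned is not given in the sources used here.

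Values in the deposited table were read as RPM from its values, since per the file headers the columns hold expression. All nonzero values (100%) were whole multiples of 1 step per library within 0.1 tags, which gave whole tags and depths of 11751322 to 12384958 tags. The tags in the table sum to 2927136 to 3343808 per library, with rows of identical values each counted. These depths limit precision to about 0.25 RPM for a count of 0.

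limma 3.58.1 in R 4.3.3 was fitted with a trend on log2(RPM + 1) over the 649 rows that reached 1 RPM in at least 3 libraries (Benjamini-Hochberg 0.05, two-sided, IUGR over Normal). Folds on this scale understate changes of low rows. edgeR 4.0.16 and DESeq2 1.42.0 were run on the recovered tags. The limma and edgeR fits were run on simulated data as a check, and the DESeq2 fit was not. Positions are from GENCODE M21 (GRCm38, the assembly called mm10). Python 3.11.15 with scipy 1.17.1 was used for the rest.

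Members and lists were chosen with earlier results of these data known. Named were all miR-297 rows, the 4 most abundant tested rows of miR-466, miR-467 and miR-669, and neighbours within 1000 bases. The 3 rows most alike each tested member and marker miRNAs were also named. Neighbours under the filter are not described in the report. The predicted miRNA past the threshold is described, without its name, under other observations. Alternatives covered the tool, scaling, pseudocount, filter, leaving out each library in turn, and a replicate block. Pairs of replicates gave a chi-square of 50.2 to 196.5 per degree of freedom, far above sampling noise, so none was treated as a repeat.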

Additional observations from a re-analysis of the deposited data

How the results depend on the processing

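The log2 folds of miR-297a-5p and miR-297b-5p stayed negative in 15 of 15 alternatives, from -0.56 to -0.26 and from -0.33 to -0.10. That of miR-297c-5p stayed positive in 15 of 15 but its size depends on the pseudocount and the tool, at 10.42 with a pseudocount of 0.1, 4.15 with 10, 12.12 in edgeR and 12.48 in DESeq2, as its Normal libraries hold 1 tag in sum; leaving out any library gave 7.23 to 7.51. The summed 5p log2 ratio was 0.23 to 0.51. The count of miRNAs past the threshold was 2, and 2 in edgeR, 5 in DESeq2, 1 with at least 100 tags in 3 libraries (357 rows tested) and 2 to 3 without any library. With a replicate block it was also 2. With 1 library of each group per block, the block cannot change a fold, so it adds nothing to the counts of signs above. Libraries with the same number did not deviate together (r = -0.03, -0.12 and -0.03, against -0.07 to 0.15 for different numbers). No pairing by number was thus seen, though so few libraries cannot exclude it. For the 20 rows named from the array, 291 of 295 alternatives changed neither direction nor call. Those that did were miR-669c-5p, as given above, miR-466d-5p, at log2 folds of -0.28 to 0.059 over the left-out libraries and positive without IUGR replicate 1, and miR-466c-5p, at -0.32 to 0.057 and positive without Normal replicate 1. For 8 further rows (the 3 leukocyte markers, the 3 rows most alike miR-297c-5p, miR-532-5p and the predicted miRNA), whose alternatives were chosen after seeing the data, 116 of 118 changed neither; the exceptions were miR-150-5p in DESeq2 and miR-223-3p without Normal replicate 2, as given above. Within libraries, leaving out any library gave log2 ratios of 4.95 to 5.06 for miR-297a-5p over miR-297b-5p, 9.79 to 10.38 for miR-297a-5p over the 3p arm and 4.83 to 5.36 for miR-297b-5p over the 3p arm, with an exact permutation p of 0.0625, the smallest that 5 libraries allow. Adding up the 3 identical 3p rows in place of counting them once gave 8.50 and 3.51 for the ratios over the 3p arm, by construction log2 of 3 lower. The 3p arm, at 1 to 6 tags per library, is at the limit of this depth.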

Other observations

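Other rows also spanned a wide range between libraries, though not along the groups. Of the 205 rows that reached 1000 tags in a library, 3 differed by at least 100-fold between their highest and lowest library, a limit set after the values were seen. miR-297c-5p was among these 3. miR-532-5p, of a cluster in the Clcn5 gene, was at 2083, 2292 and 8.66 RPM in IUGR and at 15.2, 4.04 and 2431 RPM in Normal. miR-744-5p was at 4.93, 2.20 and 148.9 RPM in IUGR and at 4.24, 1.70 and 230.1 RPM in Normal. For both of these the high libraries came from both groups, and the groups overlapped.

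Outside the family, 1 row passed the threshold in limma, one that the table lists as predicted, with no name from miRBase. It held 4, 3 and 0 tags in IUGR, against 55, 91 and 94 tags in Normal (limma, log2 fold -2.66, SE 0.25, adjusted p = 0.00188). Its direction was opposite to that of miR-297c-5p, and it reached 8.00 RPM at most.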
